A study of Mus musculus with 22 samples.

Results

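The regions described here are promoter H3K4me3 domains of G1ER cells that covered more DNA after 24 h of erythroid differentiation than before it. Peaks of the 10 H3K4me3 lists were merged where they touched, which gave 16244 regions. Of these, 11506 held a peak in every list and 8777 of those also contained the TSS of a protein-coding gene (GENCODE, mm10). A region became a member when its smaller covered length at 24 h exceeded its larger covered length at 0 h and the 24 h mean was at least 15% above the 0 h mean. This selected 479 of 8777 promoter regions (5.46%), which carried the start sites of 528 genes. The mirror rule selected 581 regions that narrowed. Because the 0 h and 24 h lengths chose the members, those lengths are given below as a description and were not tested. The split rested on the scale: after each list was divided by its median peak length, 263 regions widened and 1171 narrowed. All 263 were members, and in the remaining members the scaled 24 h mean was still above the 0 h mean. The list medians were 2109 and 2146 bp at 0 h and 2228 and 2220 bp at 24 h. With medians this close and larger at 24 h, both outcomes follow from the rule and test nothing. Without the second 0 h list, 932 regions met the rule.

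G1ER (G1E-ER4) is a mouse erythroid progenitor line derived from Gata1-null embryonic stem cells, so all samples lack endogenous GATA1. It carries a constitutively expressed transgene that fuses GATA1 to the ligand-binding domain of the estrogen receptor, and β-estradiol activates the fusion protein. Cells were grown with stem cell factor and erythropoietin and were collected untreated (0 h) or after 2, 6, 12 and 24 h of β-estradiol. H3K4me3 and H3K27ac ChIP-seq had 2 samples per time point, and CTCF ChIP-seq had 1 sample at 0 h and 1 at 24 h. Nothing in the labels said whether the samples of a time point came from separate cultures, so p-values measure only the spread between these samples. It is a single line with an inducible factor, not a time course of primary red cell precursors. The files were peak lists, so the sequencing depth was unknown.

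The H3K4me3 lists held 12925 to 14452 peaks covering 29.3 to 32.9 Mb, and the H3K27ac lists held 17247 to 18333 peaks covering 43.9 to 46.6 Mb. Of 8 erythroid markers, 5 had an H3K4me3 peak over a TSS in all 10 lists, whereas none of 4 myeloid and none of 4 megakaryocyte markers had one in any list. Of 3 mast cell markers, Cpa3 and Ms4a2 had such peaks at 0 h, Cpa3 had none at 24 h, and Fcer1a had none in any list. Peak length had a sharp upper end in every list. The longest H3K4me3 peak was between 8843 and 9200 bp and the longest H3K27ac peak between 8769 and 8973 bp, so a domain longer than that could be missing from a list.

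H3K4me3 is deposited around the start sites of active genes by SET1 and MLL complexes, and it usually forms a peak that flanks the TSS and reaches into the first part of the gene. The width of that peak differs between genes, and wide domains are a known feature of genes that define a cell's identity. In the erythroid lineage, GATA1 binds WGATAR motifs and switches on the genes for heme, globin and the red cell membrane while the progenitor program is switched off.

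The following sequences show what lies under the members. The first lines give the 250 bases before the TSS (RefSeq promoter table, GRCm38.p6) of 4 members that held a GATA motif match and are named in the results. The last line gives the 200 bases with the most matches inside the stretch that Plin2 added by 24 h. The matches AGATAA or AGATAG, and likewise TGATAA or TGATAG, read on either strand, are in capitals.

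Il9r, chr11:32200280-32200529, minus strand: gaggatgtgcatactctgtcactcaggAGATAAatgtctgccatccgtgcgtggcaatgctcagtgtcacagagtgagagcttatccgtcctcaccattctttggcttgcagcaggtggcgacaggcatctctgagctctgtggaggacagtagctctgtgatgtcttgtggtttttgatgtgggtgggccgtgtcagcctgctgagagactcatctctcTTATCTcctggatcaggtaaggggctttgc
Pfkm, chr15:98108221-98108470, plus strand: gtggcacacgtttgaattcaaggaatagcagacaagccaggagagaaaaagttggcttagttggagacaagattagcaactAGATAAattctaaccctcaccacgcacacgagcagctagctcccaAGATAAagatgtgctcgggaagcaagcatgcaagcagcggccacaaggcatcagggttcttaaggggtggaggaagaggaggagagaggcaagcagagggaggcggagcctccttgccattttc
Rhd, chr4:134864286-134864535, plus strand: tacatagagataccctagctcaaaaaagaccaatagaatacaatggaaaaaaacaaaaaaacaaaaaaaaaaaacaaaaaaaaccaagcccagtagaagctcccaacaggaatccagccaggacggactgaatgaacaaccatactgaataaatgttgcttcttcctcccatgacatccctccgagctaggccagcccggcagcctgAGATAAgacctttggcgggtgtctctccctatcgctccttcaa
Epor, chr9:21963577-21963826, minus strand: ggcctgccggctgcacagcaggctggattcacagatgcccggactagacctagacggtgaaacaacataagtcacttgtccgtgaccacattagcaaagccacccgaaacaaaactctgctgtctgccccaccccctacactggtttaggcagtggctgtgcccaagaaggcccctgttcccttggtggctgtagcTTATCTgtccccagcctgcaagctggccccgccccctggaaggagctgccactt
Plin2 added stretch, chr4:86664014-86664213, minus strand: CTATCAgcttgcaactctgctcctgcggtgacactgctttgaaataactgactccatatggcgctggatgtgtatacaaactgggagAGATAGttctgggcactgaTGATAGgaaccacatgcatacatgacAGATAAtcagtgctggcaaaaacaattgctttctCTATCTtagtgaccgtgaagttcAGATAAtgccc

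All bases of the Plin2 line lay in an intron, centred 5947 bp downstream of the TSS, and held 6 matches. The Il9r and Pfkm windows held 2 matches each, and the Rhd and Epor windows 1 each. Of the RefSeq promoter windows (300 bases) of members, 106 of 456 (23.2%) contained a match, against 16.4% of the 8968 windows of all promoter regions and 29.8% of all 32851 windows. For the motif written backwards, the shares were 16.2% and 15.9%. In the stretches added by 24 h the motif occurred 2.14 times per kb in members and 2.28 times per kb over all promoter regions, members included, and over the whole merged regions 1.80 and 1.53 times per kb. A match in these letters is a description of the sequence, not a binding site.

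Arrb1, which encodes β-arrestin 1, had the largest ratio of all members, at a region on chr7:99592634-99597832. It covered 1245 and 724 bp at 0 h, 1270 and 1262 bp after 2 h, 1724 and 1895 bp after 6 h, 1847 and 1935 bp after 12 h, and 3634 and 4201 bp after 24 h, a ratio of 3.98. A further Arrb1 region, upstream on the same chromosome, was also a member. Dmtn, which encodes the actin-bundling protein dematin of the membrane skeleton, covered 1616 and 1878 bp at 0 h, 2322 and 2957 bp after 12 h, and 4914 and 4870 bp after 24 h (chr14:70622716-70627643). Both genes gained most of their length between 12 and 24 h.

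Lmo2, which encodes the LIM-domain bridge of the GATA1 and TAL1 complex, widened at its upstream promoter region (chr2:103957147-103960917). This region covered 1450 and 1308 bp at 0 h and was longer in the mean at each later time, with 1296 and 1703 bp after 2 h, 2125 and 2306 bp after 6 h, 2725 and 2772 bp after 12 h, and 3602 and 2935 bp after 24 h. The other Lmo2 region, chr2:103968082-103973792, covered 4773 and 4963 bp at 0 h and 5700 and 5495 bp at 24 h. Its ratio of 1.1499 left it just outside the rule. The remaining regions with the 10 largest ratios were those of Arhgdig and Pdia2 (2.84), 6030468B19Rik (2.40), Dhdh, Gm45808 and Tulp2 (2.25), Il9r (2.21), Selenbp1 (2.04), Selenbp2 (1.97) and Arl4d (1.96). Il9r, a cytokine receptor gene counted here among progenitor and mast cell genes, covered 2397 and 2303 bp at 0 h and 5309 and 5092 bp at 24 h. Selenbp1 and Selenbp2 are near-identical paralogs, so reads between them may be split or dropped by unique alignment. Only 8 members reached a ratio of 2, 137 reached 1.3, and the median ratio was 1.22.

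**Figure D1:**
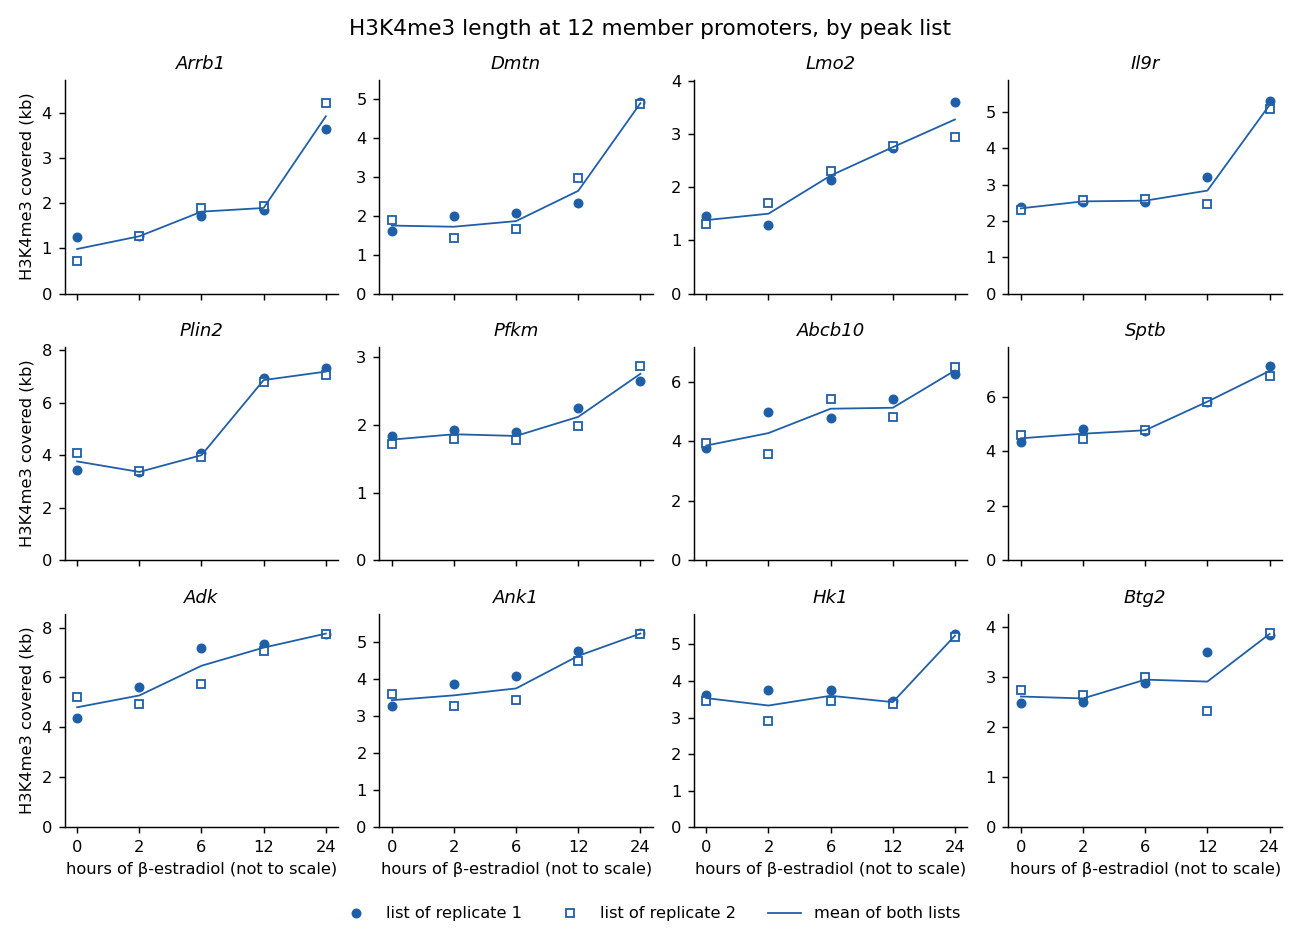
H3K4me3 covered length in kb (vertical axis, from 0) of 12 member promoters at 0, 2, 6, 12 and 24 h of β-estradiol; filled circles and open squares are the lists of replicates 1 and 2 and lines join their means. Plin2 reached 6936 and 6780 bp by 12 h, whereas Hk1 was still at 3466 and 3379 bp at 12 h and covered 5291 and 5190 bp at 24 h.

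The heme pathway held the largest share of members among the gene lists. Of its 11 genes with a promoter region in every list, 7 widened (63.6%), against 5.44% of all 9697 genes with such a region, and 1, Abcg2, narrowed. Abcb10, a mitochondrial inner-membrane transporter needed for heme synthesis, had a ratio of 1.65, with 3763 and 3960 bp at 0 h and 6259 and 6505 bp at 24 h. Tmem14c, which moves protoporphyrinogen into the mitochondrial matrix, had a ratio of 1.54, and its 0 h lists stood apart at 3336 and 4972 bp. The pathway enzymes followed at lower ratios. Fech, the ferrochelatase that inserts iron into protoporphyrin, had a ratio of 1.29, Ppox 1.27, Uros 1.23 and Alad 1.16. At Fech, 3990 and 6557 bp at 0 h were followed by 6802 and 6769 bp at 24 h, so its ratio rested on the first 0 h list. After scaling by median peak length, 5 of the 7 still widened and Alad and Fech did not.

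Of the genes of the red cell membrane and skeleton, 10 of 22 (45.5%) widened and none narrowed, although 1 gene of the list narrowed after scaling. Sptb, which encodes β-spectrin, covered 4351 and 4615 bp at 0 h, 5822 and 5833 bp after 12 h, and 7127 and 6783 bp after 24 h. Ank1, the ankyrin that ties spectrin to the membrane, went from 3271 and 3590 bp to 5242 and 5215 bp. In both genes the 0 h and 24 h lists did not overlap, as the rule required, and the spread between the lists of a time point was smaller than the gain. The list also held Dmtn (2.80), Rhd (1.33), Gypc (1.26), the anion exchanger Slc4a1 (1.25), Add2 (1.17) and Mpp1 (1.16). Add2 and Mpp1 did not pass the rule after scaling.

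Of 4 globin genes with a region in every list, 2 widened and none narrowed. Hbb-bs, the adult β-globin gene, covered 2119 and 2170 bp at 0 h, 1744 and 1779 bp after 6 h, and 2717 and 2968 bp after 24 h. Its 6 h values therefore lay below its 0 h values. Hba-a2, an adult α-globin gene, covered 1954 and 2103 bp at 0 h and 2104 and 2802 bp at 24 h, so its lists at the ends of the course were separated by 1 bp, and it did not pass the rule after scaling. Globin genes have near-identical copies, and alignment of unique reads can split or remove their signal. In the iron list, Slc25a37, the mitochondrial iron importer mitoferrin 1, was the only member of 14 genes (1.21), and Tfr2 narrowed.

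Transcription factor and progenitor genes moved both ways. Of 17 erythroid transcription factors, Lmo2 and the small Maf gene Mafk, with 3826 and 4436 bp at 0 h and 5577 and 5176 bp at 24 h, widened and Klf3 and Sox6 narrowed. Among 12 progenitor and mast cell genes, Il9r widened and Myb, Meis1 and Rgs18 narrowed. Of 14 genes of the erythropoietin receptor pathway, Epor itself (1.16) and Erfe (1.33) widened and Stat5a, Socs1, Grb2 and Sh2b3 narrowed. Erfe encodes erythroferrone, the hormone by which erythroblasts lower hepcidin. Epor did not pass the rule after scaling.

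Metabolic and proliferation genes contributed a few members each. In glycolysis and antioxidant defence, 3 of 30 genes widened. These were the hexokinase gene Hk1 (1.48), the phosphofructokinase gene Pfkm (1.55) and Pklr (1.17), the gene of the red cell pyruvate kinase, and Gsr and Hmox1 narrowed. In cell cycle exit, the antiproliferative genes Btg2 (1.48) and Btg1 (1.29) and the cyclin gene Ccng2 (1.16) widened, of 17 genes, and Rb1 and Gadd45b narrowed. Among 29 enzymes of histone methylation and acetylation, the deacetylase genes Hdac7 (1.34) and Hdac5 (1.21) widened and Kdm5b, Hdac2 and Kat2a narrowed. Of 24 genes of organelle clearance, ubiquitin and survival, Gabarap, an autophagosome protein gene, widened (1.19) and Sqstm1 narrowed. Gabarap, Ccng2 and Pklr did not pass the rule after scaling. The myeloid and megakaryocyte list had 2 genes with a region in every list, and neither was a member.

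Of the promoters that the study captured with guide RNAs, 29 had a region in every list, 12 widened and 7 narrowed. The study chose these promoters on the same cells for their changing expression, so their share is not independent of the differentiation. The 12 were Dmtn, Il9r, Abcb10, Dhrs11 (1.62), Btg2, Atp1b2 (1.40), Hbb-bs, Spns2 (1.32), Mafk, Hebp1 (1.29), Plekho2 (1.24) and Slc25a37. All 12 also passed the rule after scaling, where 9 captured genes narrowed. The ratios of Spns2 and Slc25a37 each rested on a single 24 h list. Spns2 covered 2447 and 2442 bp at 0 h and 2649 and 3790 bp at 24 h. Slc25a37 covered 2422 and 2563 bp at 0 h and 3347 and 2700 bp at 24 h.

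**Figure D2:**
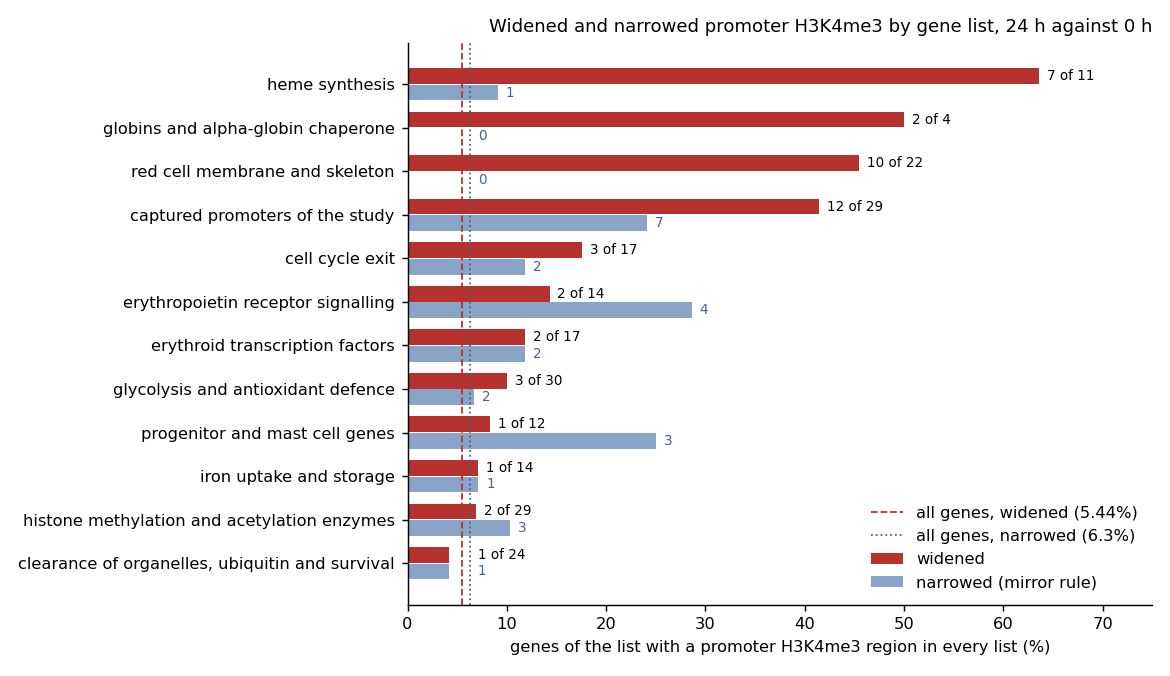
Share of the genes of each list with widened (red) or narrowed (blue) promoter H3K4me3 between 0 and 24 h, in percent of genes with a promoter region in every H3K4me3 list; numbers give the gene counts and the lines mark 5.44% and 6.3% of all genes. Heme synthesis, globin and membrane genes lie far to the right of the line for widened genes, and the myeloid and megakaryocyte list, with 2 such genes, is not drawn.

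The widening lay mostly downstream of the TSS. The stretch covered in both 24 h lists and in neither 0 h list measured 342 bp at the median and 3125 bp at most, and 464 of 479 members had such a stretch. Among the 415 of these whose start sites lay on 1 strand, 354 (85.3%) added more downstream than upstream, and 91.3% of their added bp lay on the downstream side. The shares were 62.4% and 72.4% in 1966 other promoter regions that added bp without being members. Those regions added much less, with a median of 56 bp against 347 bp in the 415 members. The part of the size of the gain in these shares was not tested. In 530 narrowing regions, 67.8% of the lost bp lay downstream. At 2025 bp downstream of the TSS, 39.4% of 430 members were covered at 0 h, 49.0% at 12 h and 63.0% at 24 h, in the mean of both lists. At 975 bp upstream, the shares were 34.3% and 38.8% at 0 and 24 h. Over all 7669 such promoter regions, coverage 2025 bp downstream was 30.5% at 0 h and 31.7% at 24 h. The 0 h and 24 h lists chose the members, so a larger gain in members than over all regions follows from the rule. The rule did not set the side of the gain, and the side was described but not tested. The gain came from longer single peaks, since 475 members had exactly 1 peak in each of the 4 lists.

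**Figure D3:**
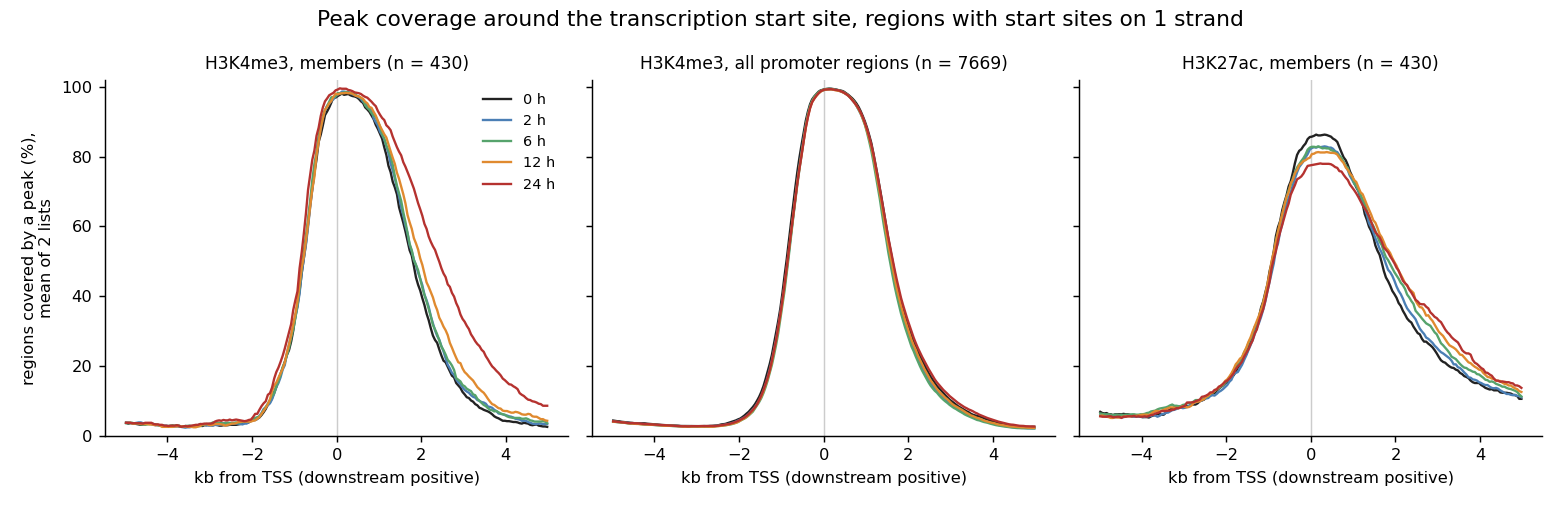
Percent of regions covered by a peak (mean of 2 lists) against the distance from the TSS in kb, downstream positive, at 0, 2, 6, 12 and 24 h. In members the H3K4me3 curves separate downstream of the TSS, with 24 h farthest out. Over all promoter regions the H3K4me3 curves lie almost on each other. The 0 h and 24 h lists chose the members, so the larger gain in members follows from the rule. Member H3K27ac reaches farther downstream at 24 h and is lower at the TSS, where members without a listed peak count as uncovered.

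The added stretch was mostly intronic. Of 241 kb added by members, 82.1% lay in introns of protein-coding transcripts, 5.94% in coding exons, 5.03% in UTRs and 6.91% outside genes. The stretch common to the 0 h and 24 h lists of the same members was 58.2% intronic and 21.6% outside genes. In 369 of 464 members more than 50% of the added bp were intronic. The added stretches of other promoter regions were 70.5% intronic and 21.8% outside genes. The added bp of Dmtn (2931 bp), Adk (2671 bp), Il9r (2617 bp), Abcb10 (2295 bp) and Sptb (1999 bp) were entirely intronic. At the short genes Btg2 and Btg1, all of the 1134 and 645 added bp lay in UTR sequence. At the globin genes Hbb-bs and Hba-a2, all of the 547 and 307 added bp lay outside genes. Most of the added bp also lay outside genes at Rhd (75.5%) and Arl4d (55.1%). The added stretches had fewer CpG dinucleotides (12.0 per kb) than the common stretches (38.2 per kb), and over all promoter regions, members included, the values were 11.5 and 41.4 per kb. The genes of members were not unusually long, with a median of 24.9 kb against 23.5 kb for all promoter regions.

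In the lists at 2, 6 and 12 h the rule required a peak but did not use its length. In both 12 h lists, 158 members (33.0%) were longer than in both 2 h lists, against 16.6% of all promoter regions, and 34 (7.10%) were shorter, against 14.8%. The median log2 difference from 2 to 12 h was 0.06 in members and 0.00 over all promoter regions, on the log2(bp + 200) scale. Leaving out a list drops a condition, so it cannot lower the count of longer members, nor that over all promoter regions. Without the first 2 h list, 314 members were longer (65.6%, with 47.9% of all promoter regions). Without the second 12 h list, 247 were longer (51.6%, with 35.4%). Members had made a median of 9.83% of their 0 to 24 h gain by 2 h, 14.2% by 6 h and 30.9% by 12 h. The largest step ended at 24 h in 311 members (64.9%) and at 12 h in 79 (16.5%). The narrowing regions had made a median of 49.6% of their loss by 2 h, and their largest step ended at 2 h in 249 of 581 (42.9%). Both sets of figures are built on the 0 h and 24 h lists that chose the regions, so they describe the regions and test nothing.

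Plin2, the gene of the lipid droplet protein perilipin 2, was the only member that passed the 12 h against 2 h test over all regions, in which 20 of 14862 (0.135%) were longer and 85 (0.572%) were shorter, and 225 and 436 were called in sum without the first and second 2 h lists. Its region (chr4:86663672-86671042) covered 3447 and 4084 bp at 0 h, 3346 and 3386 bp after 2 h, 4088 and 3919 bp after 6 h, 6936 and 6780 bp after 12 h, and 7329 and 7034 bp after 24 h. The 12 h lists lay far above every earlier list. The log2 difference was 0.98 (adjusted p = 0.0392, limma). At an unadjusted p under 0.05, 54 members (11.3%) were longer and 5 were shorter, against 231 (2.63%) and 167 of all promoter regions. For Plin2, length and score went apart: its peaks scored 1358 and 1071 at 2 h and 205 and 224 at 12 h. With only peaks at or above the median score, the 12 h peaks dropped out and the Plin2 difference turned to -4.16 (adjusted p = 0.00395, limma).

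The same was seen across the members. The score is the peak caller's measure of significance, which rises with enrichment and with depth. In 383 of 479 members (80.0%) both 24 h scores lay below both 0 h scores, against 54.9% of all promoter regions and 29.1% of the narrowing regions. The median log2 ratio of the mean score, 24 h over 0 h, was -0.42 in members and -0.17 over all promoter regions. Plin2 scored 1103 and 866 at 0 h and 173 and 216 at 24 h while its covered length grew. Dmtn went the other way, from 169 and 138 to 354 and 361, as did Fryl, from 87.3 and 134 to 386 and 428. Both score and length come from the 0 h and 24 h lists that chose the members, so this is a description. What part the score had in the lengths was not tested. Among peaks at or above the median score, 190 of 5491 promoter regions met the rule.

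**Figure D4:**
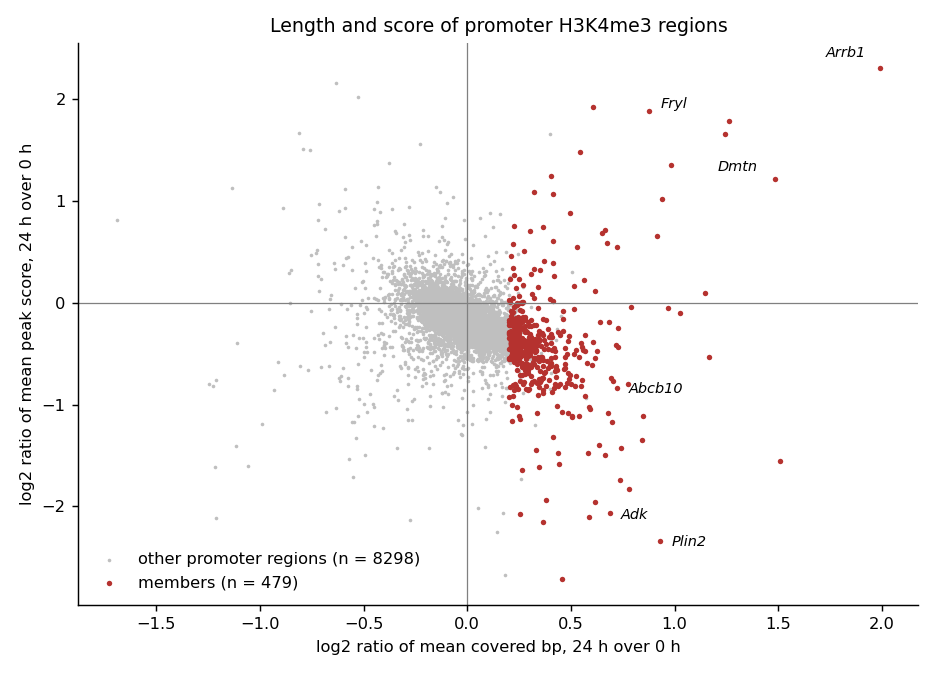
Each point is a promoter H3K4me3 region, with the log2 ratio of its mean covered length (horizontal) and of its mean peak score (vertical), 24 h over 0 h; members are red and the other 8298 regions grey. Most members lie below the horizontal zero line (426 of 479), with Plin2 and Adk far below it and Arrb1, Fryl and Dmtn above it.

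H3K27ac, the mark of active promoters and enhancers, was measured in other libraries than those of the rule. Unless whole peaks are named, its length was counted only inside the merged H3K4me3 regions, whose edges came from the H3K4me3 lists. These regions were longer in members (median 3753 bp) than over all promoter regions (median 2993 bp). The part of region length in the H3K27ac shares was not tested. Within the member regions, 220 members (45.9%) had longer H3K27ac in both 24 h lists than in both 0 h lists, against 26.3% of all promoter regions. In 44 (9.19%) both 24 h lists were shorter, against 11.8%. The widening rule applied to H3K27ac selected 142 members (29.6%), against 10.3% of all promoter regions and 5.85% of the narrowing regions. The median log2 difference was 0.09 in members and 0.02 over all promoter regions. In members alone it was 0.034 after scaling by median peak length and 0.00 among higher-scoring peaks. The H3K27ac list medians were 2186 and 2132 bp at 0 h and 2280 and 2221 bp at 24 h. Scaling therefore lowered this difference in every region with a peak at 0 or 24 h. The values over all promoter regions in these settings are not given, so they do not compare members with other regions. Over the stretch that members added in H3K4me3, H3K27ac covered 39.1% and 36.1% of the bp at 0 h. It covered 51.4% and 47.3% after 6 h, 54.8% and 54.0% after 12 h and 53.9% and 54.4% after 24 h. H3K4me3 itself covered 26.9% and 11.0% of that stretch at 2 h and 39.5% and 36.9% at 12 h. The stretch holds no H3K4me3 at 0 h by definition, so the order in which the marks covered it is not a result. Over the added stretches of all promoter regions, 434 kb of which members gave 241 kb, H3K27ac covered 39.3% and 35.6% at 0 h and 55.3% and 54.1% at 24 h. On the stretch common to 0 and 24 h, H3K27ac covered 81.6% and 83.4% of member bp at 0 h and 72.7% and 76.5% at 24 h, against 86.1% and 86.0% and then 85.5% and 85.9% over all promoter regions. Members without any H3K27ac peak count as uncovered here. They numbered 61 and 49 in the 0 h lists and 104 and 87 in the 24 h lists. Whether such peaks were lost or had grown past the longest listed peaks cannot be told apart.

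**Figure D5:**
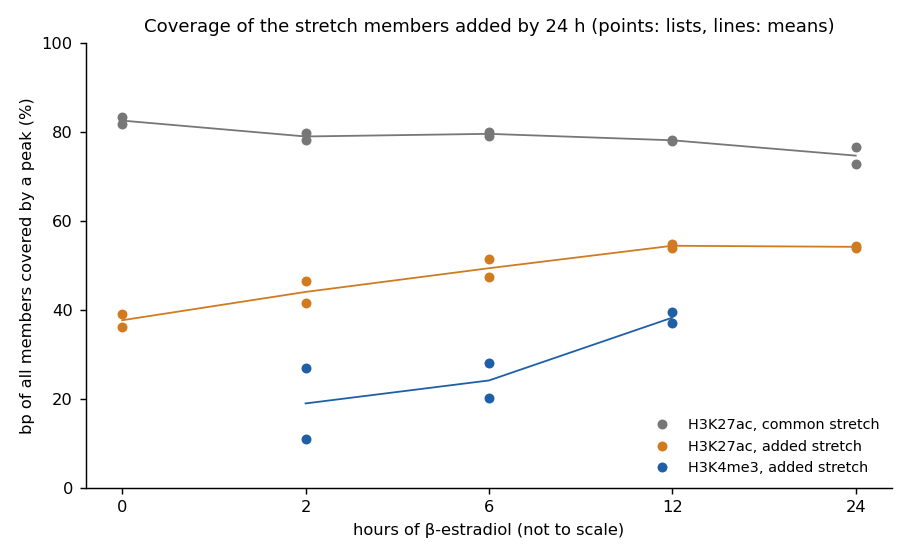
Percent of the bp of the stretches that members added in H3K4me3 by 24 h, or of their common stretches, covered by peaks at each time; points are lists and lines are means of the 2 lists. H3K27ac on the added stretch stood between 36.1% and 39.1% at 0 h and between 53.9% and 54.8% from 12 h on. H3K4me3 is not drawn at 0 and 24 h, where the stretch is defined by it. It lies below H3K27ac at 2, 6 and 12 h, but the stretch holds no H3K4me3 at 0 h by definition, so this order is not a result.

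In the limma fit over all regions with H3K27ac, 178 of 13619 regions (1.31%) were longer at 24 h than at 0 h and 150 (1.1%) were shorter. Of the members, 37 (7.72%) were longer, against 126 (1.44%) of all promoter regions. A further 13 members (2.71%) were shorter, against 55 (0.627%) of all promoter regions. The member and promoter shares count regions that were not fitted. After scaling by median peak length the fit called 109 regions longer and 154 shorter, and 24 members longer. With whole H3K27ac peaks, not cut at the region edges, it called 198 regions longer and 217 shorter. Of the members, 43 were then longer and 14 shorter. Without the first or the second 24 h list, 23 and 22 members were longer, and 25 were shorter without the second. With a list left out, the fit called 146 to 419 of all regions longer and 158 to 470 shorter. The calls over all regions, 328 in sum, came to 577 without the first 0 h list and to 616 and 497 without the first and second 24 h lists. The members tested numbered 442, because 37 had too few lists with a peak.

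Several membrane and metabolic genes were among the longer ones. Slc4a1, the band 3 anion exchanger gene, had 1966 and 2007 bp of H3K27ac at 0 h, 1599 and 1527 bp after 2 h, 1915 and 1833 bp after 6 h, 2766 and 2677 bp after 12 h, and 3276 and 3276 bp after 24 h (log2 difference 0.67 ± 0.03 SE, adjusted p = 0.000182). Fryl was filled by H3K27ac from 6 h on, with 1829 and 1757 bp at 0 h, 1711 and 1778 bp after 2 h and 3030 bp in every later list (log2 difference 0.70, adjusted p = 3.58e-05), whereas its H3K4me3 was at 1595 and 1518 bp at 6 h and 2947 and 2732 bp at 24 h. Phospho1, Nme4, Sun2, Hebp1, the region of 6030458C11Rik and Drosha, Adipor1 and Sgsm3 were also among the 10 members with the smallest adjusted p in this direction. Pfkm, Mpp1, Erfe and Hba-a2 of the gene lists also passed the test, with log2 differences of 0.77, 0.82, 0.73 and 0.18. Erfe had 1095 and 1239 bp at 0 h and 2071 bp in both 24 h lists, and it no longer passed without either 0 h list or either 24 h list (adjusted p between 0.0522 and 0.0966, limma). Mpp1 no longer passed without either 24 h list (0.0523 and 0.0587), nor Pfkm without the first 0 h list (0.0531) or the second 24 h list (0.0579). Hba-a2 lost its call in 10 alternatives and turned in 1, with adjusted p of 0.0546 to 0.081 without a list at 0, 6 or 12 h and of 0.173 after scaling. Among higher-scoring peaks alone, Fryl, Phospho1 and Adipor1 passed the test in the other direction, and Hba-a2, Sgsm3 and Pfkm turned to negative values that did not pass. A covered length cannot exceed the region, and this narrows the spread between lists where H3K27ac fills it.

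The erythroid genes with the largest H3K4me3 gain did not all pass the H3K27ac test. Dmtn had 924 and 0 bp of H3K27ac at 0 h, 2301 and 1691 bp at 6 h and 4928 bp in both 24 h lists, with an adjusted p of 0.143. Sptb had 4954 and 4638 bp at 0 h and 7284 bp in both 24 h lists, with an adjusted p of 0.104. Ank1 had H3K27ac over all 5570 bp in each list from 2 to 12 h and in the second 24 h list, and no peak in the first. Plin2 and Fech had no H3K27ac peak in any list.

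The 13 shorter members were of another kind, since 12 of them had no H3K27ac peak at all in either 24 h list. Abcb10 had 6522 and 6544 bp at 0 h and no peak in any later list. Alad, the second enzyme of heme synthesis, had between 6448 and 6947 bp in every list from 0 to 6 h and no peak at 12 or 24 h. The transketolase gene Tkt had all 7041 bp covered in both 0 h lists and no peak in any later list. In all, 31 members (6.47%) had H3K27ac peaks in both 0 h lists and in neither 24 h list, against 103 of 8777 promoter regions (1.17%). They included Arrb1, which had 4090 and 4698 bp at 0 h, and Adk, which had 5667 and 5700 bp. The whole H3K27ac peaks at these members measured 6094 bp at the median at 0 h, against 2856 bp at members with a peak in every list, and the longest peak in any list was 8973 bp. Whether H3K27ac was lost there or had grown past the longest listed peaks cannot be told apart in these lists. Among the 345 members with a peak in all 10 H3K27ac lists, 208 (60.3%) were longer at 24 h in both lists and 12 (3.48%) were shorter, against 29.1% and 11.5% of the 7618 such promoter regions. A fit restricted to regions with a peak in all 10 lists was added after the data had been seen. It called 28 of the 345 members longer and none shorter, against 98 longer and 38 shorter of all 10960 regions fitted.

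CTCF, the insulator protein at loop anchors, was measured in 1 list per time, with no replicate check. A CTCF peak lay in 172 members (35.9%) at 0 h and in 231 (48.2%) at 24 h, against 33.2% and 42.5% of all promoter regions. In 69 members (14.4%) the peak was listed only at 24 h and in 10 only at 0 h, against 966 (11.0%) and 150 of all promoter regions. The 24 h list held 41473 peaks and the 0 h list 33193, and member regions were longer (median 3753 bp) than all promoter regions (median 2993 bp). The part of list size and region length in these shares was not tested.

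Members were spread over the genome. By chromosome, between 2.24% (X) and 7.98% (chromosome 18) of promoter regions were members, leaving out Y, which had none. The TSS of a further member lay within 100 kb in 76 members (15.9%), and the same was true of 91 narrowing regions (15.7%).

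At the edge of the rule, Mapkbp1, with 1614 and 1772 bp at 0 h and 1912 and 1984 bp at 24 h, and Ppara each had a ratio of 1.1506. Just below it stood the other Lmo2 region, Ctnnd1 (1.1497) and Ccrl2, which covered 3715 and 4106 bp at 0 h and 4174 and 4820 bp at 24 h. Ppara covered 871 and 862 bp at 0 h and 914 and 1080 bp at 24 h, so its mean gain was smaller than the difference between its 24 h lists.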

How the data were processed

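The files were 22 lists of ChIP-seq peaks, 10 of H3K4me3, 10 of H3K27ac and 2 of CTCF, each with peak positions and the score that the authors' peak caller gave. The authors aligned reads with Bowtie2 to mm10, kept unique reads and called peaks in each library with MACS without its shifting model; version, control and threshold are not given in the sources used here, and for CTCF neither is the caller. The deposited score was used only to describe peaks and in an alternative restricted to higher-scoring peaks, those reaching the median over the lists of a mark (860.28 for H3K4me3 and 241.89 for H3K27ac). One protocol label names a human build, but the positions lie on mouse start sites: 62.5% to 69.1% of H3K4me3 peaks held a GENCODE M21 TSS, against 6.60% to 7.14% after a shift of 50 kb. Samples were grouped by their labelled time, and no more than 0.038% of the peaks of a list were identical in another.

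Covered bp per region and list were compared on the log2(bp + 200) scale with limma 3.58.1 (lmFit, eBayes with trend) in R 4.3.3, with Benjamini-Hochberg adjustment over all regions that held a peak in 2 or more lists, and an adjusted p under 0.05 was called. The 12 h against 2 h fit used the 6 H3K4me3 lists at 2, 6 and 12 h, and the H3K27ac fit all 10 lists. The scripts were tested on simulated data. Alternatives changed the ratio, merging, scale, score, pseudocount, filter, block and single lists. Members and gene lists were chosen with earlier results of these data known. Named are the 10 largest ratios, up to 10 members with the smallest adjusted p in each fit and direction, members on a gene list, and the 3 regions on each side of the limit; genes named only as narrowed are those of the lists, and some genes that the rule names are not reported here.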

Additional observations from a re-analysis of the deposited data

How the results depend on the processing

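The number of members followed the limit on the ratio, with 137 at 30% and 1340 at 5% above the 0 h mean. It was 263 after scaling by median peak length, 190 among higher-scoring peaks and between 500 and 932 with a list left out, the highest without the second 0 h list. In the 12 h against 2 h fit of H3K4me3, the 105 calls became 3 with a pseudocount of 1000 bp, 3 when 5 or more lists had to hold a peak, 6 in a fit to all 10 lists, and 76 to 436 with a list left out. With a replicate block no region was called by limma (320 longer and 464 shorter at an unadjusted p under 0.05), and Plin2 had an adjusted p of 0.227. Replicate numbers did not pair the lists, since the deviations of lists with the same number correlated between -0.0758 and 0.054. With the replicate block, 21 members were called longer in H3K27ac, among 137 of all 13619 regions. The 328 calls of the H3K27ac fit became 567 with only the lists at 0 and 24 h, 136 for regions with a peak in all 10 lists (chosen after seeing the data), and 377 to 616 with a list left out. Members called longer numbered 24 after scaling (109 over all regions) and 22 to 45 with a list left out (146 to 419 over all regions). Members called shorter numbered 4 when 5 or more lists had to hold a peak (100 over all regions) and 32 with only the lists at 0 and 24 h (319). They numbered 0 for regions with a peak in all 10 lists (38 over all regions) and 12 to 25 with a list left out (158 to 470).

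Members at a ratio of 1.3 numbered 137, and 63 (46.0%) were longer at 12 h than at 2 h in both lists. This compares with 33.0% of all 479 members and 16.6% of all promoter regions. Such members numbered 78 among higher-scoring peaks and 189 to 314 with a list left out. These counts stand without a share of all promoter regions, so they do not set members apart. Leaving out a list drops a condition and cannot lower the count. The median log2 difference of members from 2 to 12 h was 0.00 among higher-scoring peaks, 0.12 at a ratio of 1.3 and 0.01 to 0.11 with a list left out. In H3K27ac, 60 (43.8%) of the 137 were longer at 24 h in both lists, against 45.9% of all 479 members and 26.3% of all promoter regions. With a list left out, 249 to 270 members were longer, a count that again cannot fall below that with all lists. In members, the median H3K27ac difference was 0.034 after scaling, 0.00 among higher-scoring peaks and 0.17 for whole H3K27ac peaks. It was 0.050 to 0.099 with a list left out. These values have no counterpart over all promoter regions here, so they do not compare members with other regions. For members with a peak in all 10 lists it was 0.16, against 0.03 over all such promoter regions. Of 434 values of 23 named members under alternatives, 396 kept their call and direction, 31 lost the call and 7 turned. All 7 turned among higher-scoring peaks, where lower-scoring peaks count as absent: Plin2 to -4.16 for H3K4me3, and for H3K27ac Phospho1 to -3.93, Adipor1 to -3.86, Fryl to -3.32, Sgsm3 to -2.96, Hba-a2 to -1.70 and Pfkm to -1.21. The cause of the other changes was not tested.

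Peak lists give no read depth, so no interval can be given for a covered length. With 2 lists per time, the order of both pairs rests on single values. Peak length ended sharply near the longest peaks.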

Other observations

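Several erythroid promoters could not be members because 1 or more H3K4me3 lists held no peak there. They were singled out after their values were seen. Alas2, the first enzyme of heme synthesis in red cells, had no peak in the second 2 h list. It covered 752 and 892 bp at 0 h, 2059 and 812 bp after 6 h, 1658 and 1813 bp after 12 h, and 2466 and 2627 bp after 24 h. Its 24 h lists lay above every earlier list.

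Zfpm1, which encodes the GATA1 cofactor FOG1, covered 6316 and 6574 bp at 0 h, 7657 and 7924 bp after 12 h, and had no peak in either 24 h list. Gfi1b, a GATA1-induced repressor, covered 7743 and 8134 bp at 0 h, had no peak in the first 24 h list and covered 8617 bp in the second. Cpox, a heme synthesis enzyme, had between 6540 and 8791 bp in 6 lists and no peak at 24 h. Of 133 promoter regions with a peak in both 0 h lists and none in at least 1 list at 24 h, 15 had a 0 h mean of 5000 bp or more. In contrast to these long domains, the mast cell gene Tpsab1 covered 1401 and 1771 bp at 0 h, between 1377 and 2825 bp from 2 to 12 h, and had no peak in either 24 h list. Tal1, Gata1 and Aqp1 had no H3K4me3 peak over a TSS in any list.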
